A study of Homo sapiens with 12 samples.

Results

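The unfolded protein response and the integrated stress response were followed through 36 genes, listed by symbol as endoplasmic reticulum (ER) chaperones and folding factors (13), factors of ER-associated degradation (4), ER stress sensors with the transcription factor XBP1 (4), ATF4 (1) and target genes of ATF4 (14). A gene was tested when at least 6 of the 12 libraries held at least 10 counts, which left 34 of the 36, among 13093 of the 19901 protein-coding genes in the table. The other two, both ATF4 targets, were nearly silent: VLDLR, a lipoprotein receptor, had 0 to 2 counts in a library and NUPR1, a small stress-induced chromatin protein, had 0 to 4. Neither is included in any count of tested members.

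The data were RNA-Seq counts from HCT116, a human colorectal cancer cell line, in which both alleles of the KAP1 gene (TRIM28) carry a C-terminal dTAG degron, so that the dTAG ligand sends the KAP1 protein to the proteasome. All cells were of 1 clone (D5), held the tag and its resistance cassettes, and spent 48 h without serum. During the last 8 h they received DMSO or dTAG, and they were then collected without serum (DMSO-S0 and dTAG-S0) or after 30 min of serum (DMSO-S30 and dTAG-S30), with 3 biological replicates in each of the 4 groups. No library came from untagged cells given dTAG, so an effect of the ligand and an effect of KAP1 loss cannot be told apart, and serum came in fresh medium, so these cannot be told apart either.

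The unfolded protein response starts when misfolded protein in the ER lumen releases the chaperone HSPA5 (BiP) from its sensors. Active ATF6 and spliced XBP1 raise chaperones and degradation factors, whereas PERK (EIF2AK3) phosphorylates the translation initiation factor eIF2alpha, which slows protein synthesis but favours translation of ATF4. Because GCN2, PKR and HRI phosphorylate the same site when amino acids run short, on viral RNA and in heme or oxidative stress, ATF4 and its targets are shared by all these stresses as the integrated stress response, while most ER chaperones belong to the ATF6 and XBP1 arms. Gene counts show neither the splicing of XBP1, nor the cleavage of ATF6, nor the translation of ATF4.

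Promoter letters are shown because the factors of the arms are known to bind different elements; most promoters of both classes held none of these, and the classes were not tested against each other. RefSeq promoters (GRCh38.p14, 250 bases before to 50 bases after the start) were found for 34 of the 36 members, without SLC7A11 and NUPR1, so that the promoter counts include VLDLR and are not over the 34 tested genes. The ER stress element (CCAAT, 9 bases of any kind, CCACG; both strands), to which ATF6 is known to bind with NF-Y, was present in 5 of 13 chaperone promoters (38.5%) and in that of XBP1, in 0 of 12 promoters of ATF4 targets, and in 19 of 15297 promoters of genes in the table (0.124%). In the stretches below it is in capitals, and HSP90B1 held it 2 times. CALR, CRELD2 and the second copy in HSP90B1 hold it on the strand opposite to the gene, so that it reads there as CGTGG, 9 bases, ATTGG.
HSPA5 (chr9:125241371-125241429, minus strand): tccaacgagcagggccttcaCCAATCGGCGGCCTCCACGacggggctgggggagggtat
HSP90B1 (chr12:103930216-103930339, plus strand): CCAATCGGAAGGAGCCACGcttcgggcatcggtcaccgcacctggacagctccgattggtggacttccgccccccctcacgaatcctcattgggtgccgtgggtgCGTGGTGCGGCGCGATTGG
CALR (chr19:12938364-12938422, plus strand): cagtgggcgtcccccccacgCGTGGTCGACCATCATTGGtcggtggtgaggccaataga
CANX (chr5:179698758-179698816, plus strand): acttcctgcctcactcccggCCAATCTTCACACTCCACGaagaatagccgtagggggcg
CRELD2 (chr22:49918534-49918592, plus strand): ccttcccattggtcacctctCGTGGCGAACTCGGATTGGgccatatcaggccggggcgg
XBP1 (chr22:28800583-28800641, minus strand): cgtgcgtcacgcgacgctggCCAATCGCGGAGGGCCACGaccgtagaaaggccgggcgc

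The core of the C/EBP-ATF response element (TGATGNAA, both strands), through which ATF4 acts as a dimer with C/EBP proteins, was found in the promoters of ASNS, CHAC1 and HERPUD1. That is 2 of 12 ATF4 targets (16.7%) and 0 of 13 chaperones, against 2.53% of all promoters. A full cAMP response element (TGACGTCA) was held by PPP1R15A alone of the 34 promoters (2.65% of all promoters), and the core of the unfolded protein response element (TGACGTG), a site of XBP1, by HYOU1 alone (2.15% of all promoters). The CArG box of serum response factor was in 0 of 34 windows and in 1.24% of all promoters. The response element core and, for PPP1R15A, the cAMP response element are in capitals below, and CHAC1 and HERPUD1 hold the core on the opposite strand, so that it reads TTGCATCA. A match describes letters within this window, and elements of many ATF4 targets lie outside such windows.
ASNS (chr7:97872443-97872502, minus strand): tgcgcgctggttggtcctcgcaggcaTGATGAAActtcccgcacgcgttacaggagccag
CHAC1 (chr15:40953236-40953295, plus strand): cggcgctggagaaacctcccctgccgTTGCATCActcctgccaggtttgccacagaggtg
HERPUD1 (chr16:56931940-56931999, plus strand): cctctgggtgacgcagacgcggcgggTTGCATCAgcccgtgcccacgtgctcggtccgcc
PPP1R15A (chr19:48872337-48872396, plus strand): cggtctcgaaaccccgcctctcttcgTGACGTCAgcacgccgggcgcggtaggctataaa

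Libraries held 20537682 to 26278707 counts, of which 7.97% to 9.37% were ERCC spike-ins. Levels are given as CPM, gene counts relative to the library total scaled by the upper quartile, and differences as log2 fold changes from edgeR's quasi-likelihood test with 1 spike-in factor and Benjamini-Hochberg adjustment over all 13093 genes. RNA of TRIM28 without serum averaged 96.9 ± 4.74 CPM (SD, n = 3) after DMSO against 92.6 ± 6.27 CPM after dTAG (log2 -0.0571, adjusted p = 0.781), and with serum its log2 difference was -0.0470 (adjusted p = 0.863). Since dTAG removes protein and not RNA, these values do not check the depletion. Of 8 epithelial markers 7 were detected and CDX1 had 0 to 1 counts. Of 8 markers of blood, endothelium and fibroblasts, COL1A1 had 250 to 1789 counts and the other 7 at most 55, with COL1A2 at 0 to 1 and DCN at 0 to 2. The summed level of these 8 was 14.6 to 18.4 CPM without serum and 68.2 to 88.0 CPM with serum.

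Reads were counted over the entire gene, introns included, so that levels are comparable between genes only per kilobase from gene start to end, and long introns lower them. On this scale, averaged over the 12 libraries, the members spanned from 0.338 CPM per kilobase for SLC7A11 to 83.6 for CALR, a calcium-binding lectin chaperone of the ER lumen. ATF4 (73.2), HSPA5 (60.8) and HSP90B1 (38.7), the HSP90 of the ER, came next. Calnexin (CANX, 19.0), DDIT4 (18.7) and PPP1R15A (15.5) lay together below them. Of the sensors, ATF6 (0.619), EIF2AK3 (0.585) and ERN1 (0.367) were all under 1 CPM per kilobase, and XBP1, the factor that ERN1 (IRE1) activates, was at 7.602. These sensor genes span 70836 to 197777 bases and XBP1 6043, so gene length enters this contrast. In CPM, ATF6 lay above XBP1, at means of 126 and 36.7 in DMSO-S0. The wide range within each class, and the position of DDIT3 and CHAC1 among the low genes, can be read in the plot of levels.

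**Figure D1:**
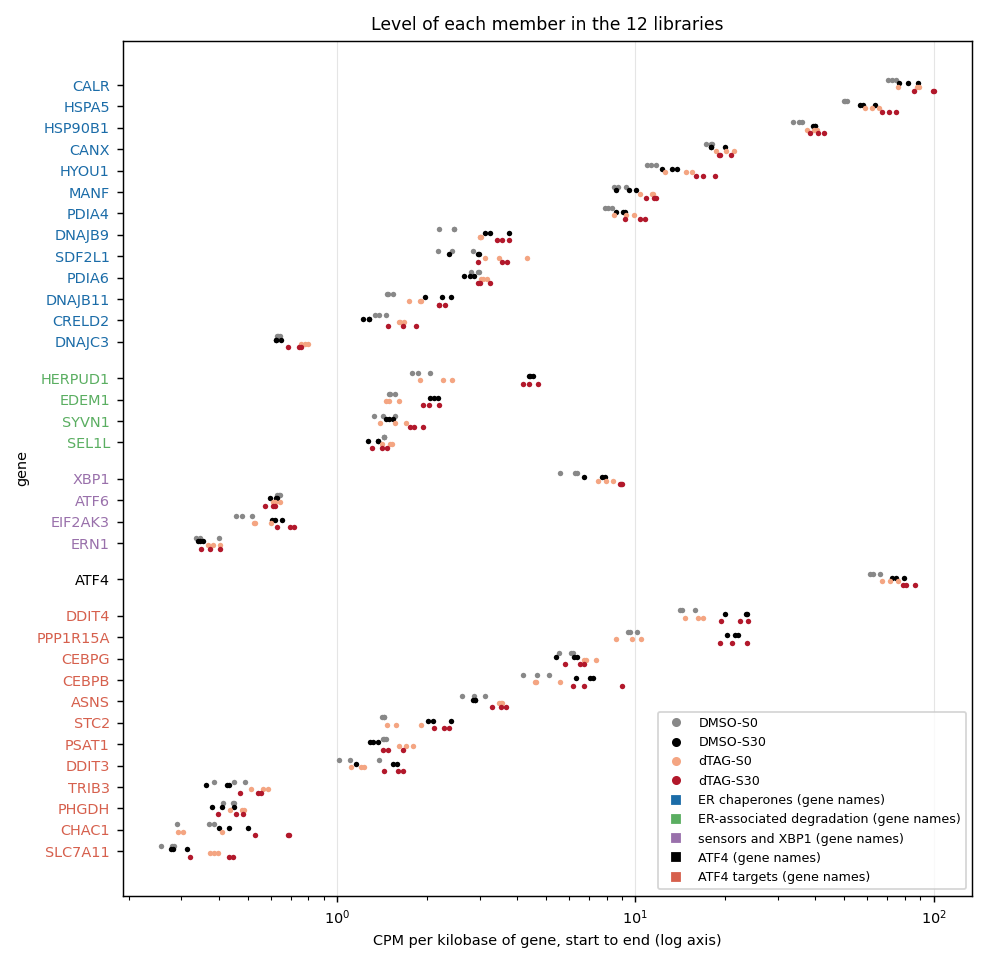
Level of the 34 tested members in each of the 12 libraries, in CPM per kilobase of gene from start to end (log axis), by class (colour of the gene name) and group (colour of the point). CALR, ATF4 and HSPA5 lie highest, at mean levels of 83.6, 73.2 and 60.8, and SLC7A11 lowest at 0.338.

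Some members share genomic space with another gene, and whether counting used the strand was not given in the sources used here. By GENCODE v44, UQCC6 lies on the other strand across 54.7% of HSP90B1, MRPL49 across 40.7% of SYVN1, and TBCCD1 across 17.1% of DNAJB11, which also shares 20.7% of its length with ENSG00000283149 on its own strand. DDIT3 overlaps MARS1 (19.1%) and MBD6 (19.96%) at its ends. It also shares 53.8% of its length with ENSG00000285133 on its own strand, which had a mean count of 0. Antisense RNAs cross 39.1% of CEBPB and 17.99% of SLC7A11, and long non-coding RNAs cross 26.6% of EIF2AK3 and the full length of ASNS. Values of these genes may hold reads of their neighbours, or lack reads that fall on both genes, which was not tested.

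dTAG without serum raised 10 of the 34 members and lowered 0, at an adjusted p under 0.05 in edgeR's quasi-likelihood test. Over all genes tested, edgeR called 0.962% higher and 0.512% lower in this comparison. DESeq2 called 13 members higher and 0 lower, where it called 176 of all 13093 genes higher. The 10 were 6 of 13 ER chaperones (HSPA5, DNAJB9, DNAJC3, DNAJB11, MANF and HYOU1), XBP1, and 3 of 12 ATF4 targets (TRIB3, ASNS and SLC7A11). Changes were small, from 0.29 to 0.47 on the log2 scale, or 22.0% to 38.4%. At an unadjusted p under 0.05, 22 members were higher and 0 lower, a cut-off at which the share of all genes was not counted. Of the 34 members 30 had a fold change above 0. In RNA from whole cultures, a change in few cells and a change per cell cannot be told apart, nor can fewer cells of a type and less RNA per cell.

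The chaperones had a fold change above 0 in 13 of 13 genes. The median log2 fold change of the 13 was 0.29, with a range of 0.10 to 0.52, beside a median of -0.00670 over all genes tested. Taken in each dTAG-S0 library against the mean of the DMSO-S0 libraries, the same median was 0.29, 0.21 and 0.31. In each of the 13 genes all 3 dTAG-S0 libraries lay above all 3 DMSO-S0 libraries, which was so for 8.50% of all genes tested. With ERCC library sizes or TMM factors, tried after the data had been seen, this held for 13 of 13 as well.

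HSPA5, the lumenal HSP70 and master regulator of the sensors (gene ENSG00000044574.7, chromosome 9, 125234853 to 125241330, minus strand, hg38), was at 326, 323 and 332 CPM in the DMSO-S0 libraries and 402, 381 and 425 CPM in the dTAG-S0 libraries. The groups were well apart, with a gap larger than the spread within either (log2 0.30, SE 0.0613, adjusted p = 0.00730). HYOU1 (GRP170, ENSG00000149428.18, chromosome 11, 119044189 to 119057202, minus strand), which exchanges the nucleotide of HSPA5, was at 153, 146 and 142 CPM with DMSO and 192, 164 and 201 CPM with dTAG. Replicate 2 was the lowest of the dTAG libraries but above all DMSO libraries (log2 0.35, SE 0.0695, adjusted p = 0.00562). Its promoter was the only one among the members with the unfolded protein response element core.

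DNAJB9, DNAJB11 and DNAJC3 are J-domain cochaperones, which stimulate the ATPase of HSPA5. DNAJB9 (ERdj4, ENSG00000128590.4, chromosome 7, 108569568 to 108574850, plus strand) was at 13.0, 13.0 and 11.6 CPM with DMSO and 15.8, 15.9 and 16.0 CPM with dTAG (log2 0.37, SE 0.0931, adjusted p = 0.0413). DNAJB11 (ERdj3, ENSG00000090520.11, chromosome 3, 186567403 to 186585800, plus strand) had 28.4, 27.2 and 27.0 against 34.7, 32.0 and 35.1 CPM (log2 0.32, SE 0.0752, adjusted p = 0.0229). DNAJC3 (p58IPK, ENSG00000102580.14, chromosome 13, 95677139 to 95794989, plus strand), which is also known as an inhibitor of eIF2alpha kinases, had 74.7, 76.0 and 73.7 against 91.6, 93.7 and 89.2 CPM (log2 0.29, SE 0.0573, adjusted p = 0.00598). In DNAJB9 and DNAJC3 the libraries of a group differed by little beside the gap between the groups. The call of DNAJB9 was lost in 4 of 8 other settings, and of the 12 fits that left out 1 library it held in 3 (replicate 1 or 2 of DMSO-S30 or replicate 1 of dTAG-S30 left out), with an adjusted p of up to 0.204 in the others.

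MANF (ENSG00000145050.15, chromosome 3, 51385047 to 51389397, plus strand), a secreted ER protein that binds HSPA5, went from 40.5, 37.9 and 36.9 CPM to 49.7, 45.2 and 49.5 CPM (log2 0.34, SE 0.0707, adjusted p = 0.00876). The 7 chaperones that did not pass were HSP90B1 (log2 0.16), the disulfide isomerases PDIA4 (0.20) and PDIA6 (0.10), SDF2L1 (0.52), CALR (0.22), CANX (0.18) and CRELD2 (0.26), with adjusted p of 0.0940 for SDF2L1 to 0.513 for PDIA6. SDF2L1 thus had the largest fold change of the class, and at 84 to 187 counts a library its largest SE (0.151). Of the 5 chaperones with an ER stress element in the window, HSPA5 alone was called.

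XBP1 (ENSG00000100219.16, chromosome 22, 28794555 to 28800597, minus strand) was at 38.5, 37.9 and 33.8 CPM in DMSO-S0 and 48.1, 45.3 and 50.9 CPM in dTAG-S0, without overlap (log2 0.40, SE 0.0738, adjusted p = 0.00313), the largest rise among the sensors and factors. The sensors themselves differed less. EIF2AK3 had a log2 difference of 0.17 (adjusted p = 0.336), ERN1 0.0693 (adjusted p = 0.761) and ATF6 -0.0315 (adjusted p = 0.870). Of the degradation factors 0 of 4 were called. HERPUD1, a membrane protein that gathers the ubiquitin ligase complex, had a log2 of 0.24 (adjusted p = 0.185), the ligase SYVN1 (HRD1) 0.11, its partner SEL1L 0.0309 and the mannosidase-like EDEM1 -0.00281, whose 95% interval was -0.13 to 0.13.

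**Figure D2:**
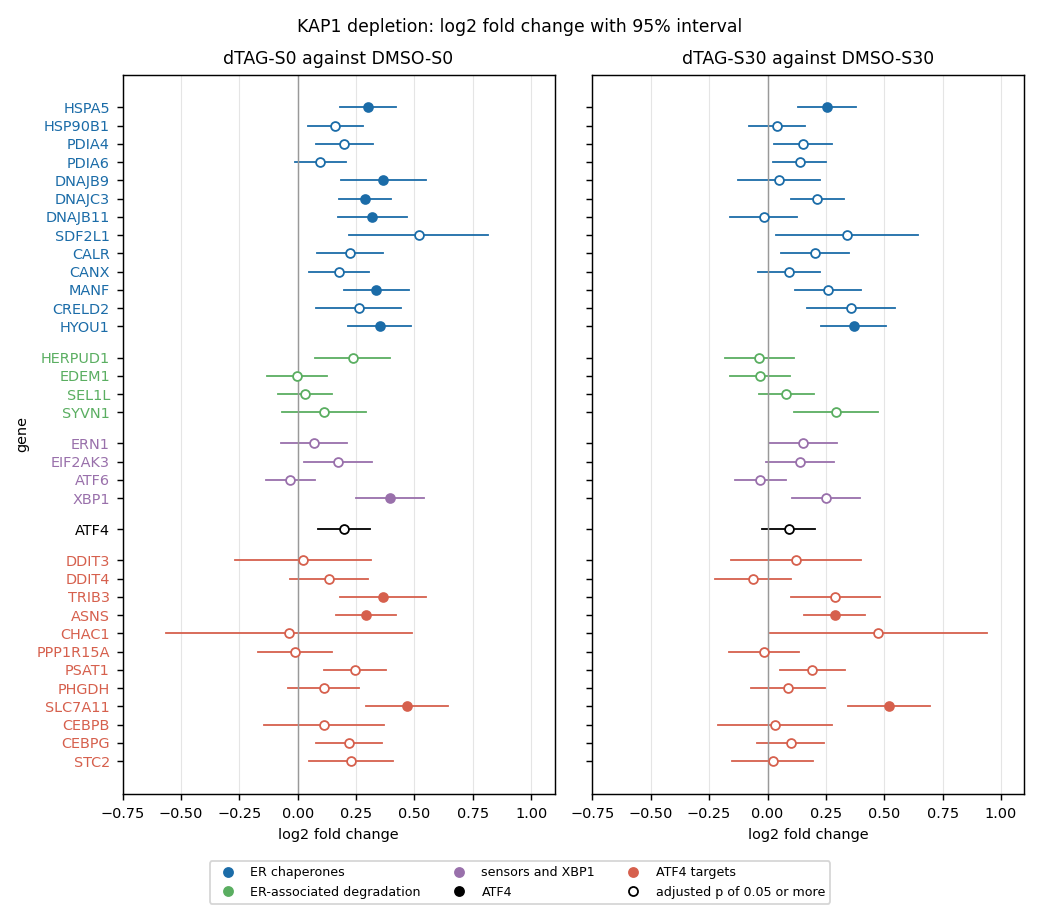
Log2 fold change of the 34 tested members with dTAG against DMSO, without serum (left) and with 30 min of serum (right). Points are edgeR estimates, lines their approximate 95% intervals (estimate ± 1.96 SE, slightly too narrow), and filled points have an adjusted p under 0.05. All 13 chaperones lie above 0 without serum, with a median of 0.29, and 12 of 13 with serum, with a median of 0.20.

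ATF4 (ENSG00000128272.14, chromosome 22, 39519695 to 39522685, plus strand) was at 197, 188 and 183 CPM in DMSO-S0 and 214, 201 and 228 CPM in dTAG-S0. The libraries of the groups did not overlap, but the difference of 0.20 on the log2 scale (SE 0.0570) did not pass the test (adjusted p = 0.0884, unadjusted p = 0.00180). ATF4 stayed uncalled in 6 of 8 other settings and in 11 of 12 fits without 1 library. It passed with DESeq2 (adjusted p = 0.0494), in edgeR's likelihood ratio test (0.0448) and without dTAG-S0 replicate 2 (0.0257). The 12 tested targets had a median of 0.18 and a range of -0.0372 to 0.47, and in 6 of 12 all dTAG libraries were above all DMSO libraries. Taken library by library, the median of the targets was 0.21, 0.0200 and 0.21.

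SLC7A11 (ENSG00000151012.13, chromosome 4, 138164097 to 138242349, minus strand), the cystine transporter that feeds glutathione synthesis, showed the largest rise of any member that passed, from 20.1, 21.9 and 22.2 CPM to 29.3, 30.3 and 31.2 CPM (log2 0.47, SE 0.0890, adjusted p = 0.00351). ASNS (ENSG00000070669.16, chromosome 7, 97852118 to 97872542, minus strand), which makes asparagine from aspartate and holds the response element printed above, was at 58.8, 63.9 and 53.6 CPM with DMSO and 72.6, 72.4 and 71.2 CPM with dTAG (log2 0.29, SE 0.0655, adjusted p = 0.0152). In both genes the dTAG libraries lay close together and above the DMSO libraries. TRIB3 (ENSG00000101255.10, chromosome 20, 362835 to 397559, plus strand), a pseudokinase that feeds back on ATF4, had 17.0, 15.6 and 13.4 against 17.8, 19.5 and 20.3 CPM (log2 0.37, SE 0.0936, adjusted p = 0.0426). Its DMSO replicate 1 was near the lowest dTAG library, and its call was lost in 5 of 8 other settings and held in 3 of 12 fits without 1 library, those that left out a DMSO-S30 replicate (adjusted p up to 0.275).

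The remaining 9 targets did not pass. The serine synthesis enzyme PSAT1 had a log2 of 0.25 (adjusted p = 0.0679) and PHGDH, the enzyme before it, 0.11. CEBPG, a dimer partner of ATF4, had 0.22 and the secreted glycoprotein STC2 0.23. DDIT3, PPP1R15A and CHAC1, which are known from strong or lasting stress, had estimates near 0. DDIT3 (CHOP, ENSG00000175197.12, chromosome 12, 57516588 to 57521737, minus strand), the proapoptotic factor, was at 5.67, 7.11 and 5.20 CPM in DMSO-S0 and 6.35, 5.72 and 6.20 CPM in dTAG-S0, all within the range of the DMSO libraries, with a log2 of 0.0223 and a 95% interval of -0.27 to 0.31. For PPP1R15A (GADD34), the phosphatase subunit that reverses the phosphorylation of eIF2alpha, it was -0.0120 (-0.17 to 0.15), and for CHAC1, a glutathione-degrading enzyme with 21 to 54 counts a library, -0.0372 (-0.56 to 0.49). DDIT4, an mTORC1 inhibitor, had 0.13, and the factor CEBPB 0.11.

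Single libraries decided how many members passed. HSPA5 lost its call without dTAG-S0 replicate 3 (adjusted p = 0.126), DNAJC3 without DMSO-S0 replicate 3 (0.0684), and HYOU1, XBP1 and SLC7A11 without either of these. MANF and ASNS were also lost without dTAG-S0 replicate 1, and DNAJB11 without any 1 of the S0 libraries but dTAG-S0 replicate 2. Without DMSO-S0 replicate 3 the count of 10 fell to 1 (HSPA5), without dTAG-S0 replicate 3 to 1 (DNAJC3) and without dTAG-S0 replicate 1 to 5, while over all genes 103, 69 and 104 were called in these fits in place of 193. With ERCC library sizes it was 5 (HSPA5, MANF, HYOU1, XBP1 and SLC7A11).

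With serum, 4 of 34 members were higher in dTAG-treated cells and 0 lower, where 0.611% of all genes tested were called higher and 0.642% lower. The 4 were HSPA5 and HYOU1 among 13 chaperones, and ASNS and SLC7A11 among 12 ATF4 targets, and all 4 were also called without serum. At an unadjusted p under 0.05 there were 15 higher and 0 lower. The shares above do not apply to that cut-off, at which the share of all genes was not counted. The chaperone median was 0.20 and that of the targets 0.11, beside -0.000670 over all genes. All 3 dTAG-S30 libraries lay above all 3 DMSO-S30 libraries in 7 of 13 chaperones and 5 of 12 targets, against 7.62% of all genes.

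HSPA5 was at 411, 376 and 368 CPM in DMSO-S30 and 436, 485 and 459 CPM in dTAG-S30 (log2 0.26, SE 0.0629, adjusted p = 0.0350). HYOU1 had 179, 159 and 172 against 208, 220.0 and 241 CPM (log2 0.37, SE 0.0710, adjusted p = 0.00410). Both pairs of groups were apart, HSPA5 by a smaller gap than without serum. ASNS had 58.1, 59.3 and 59.1 against 72.5, 75.3 and 67.7 CPM (log2 0.29, SE 0.0668, adjusted p = 0.0214), and SLC7A11 24.6, 21.6 and 21.9 against 34.9, 33.9 and 25.2 CPM (log2 0.52, SE 0.0900, adjusted p = 0.00126). In SLC7A11, dTAG replicate 3 stood well below the other two and just above the highest DMSO library.

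Of the 6 other genes called without serum, XBP1, DNAJC3, MANF and TRIB3 had log2 values with serum of 0.25, 0.21, 0.26 and 0.29 (adjusted p = 0.106, 0.0758, 0.0771 and 0.179), and in all 4 the libraries still did not overlap. XBP1 was at 47.7, 46.7 and 40.6 CPM in DMSO-S30 and 54.4, 54.1 and 53.4 CPM in dTAG-S30. TRIB3 had 14.9, 15.0 and 12.6 against 16.4, 18.8 and 19.2 CPM, DNAJC3 73.2, 76.0 and 73.2 against 87.5, 89.0 and 80.6 CPM, and MANF 43.5, 41.4 and 37.4 against 47.2, 50.2 and 51.0 CPM. By contrast, DNAJB9 and DNAJB11 had log2 values of 0.0493 and -0.0168 with overlapping libraries. DNAJB9 stood at 16.5, 19.96 and 17.1 CPM with DMSO and 18.2, 19.9 and 18.8 CPM with dTAG, and DNAJB11 at 36.2, 44.4 and 41.3 and 40.4, 42.1 and 40.3 CPM.

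ATF4 was at 217, 224 and 238 CPM in DMSO-S30 and 236, 242 and 259 CPM in dTAG-S30 (log2 0.0906, adjusted p = 0.633), and DDIT3 at 5.94, 8.19 and 7.92 and 8.57, 7.38 and 8.25 CPM (log2 0.12, adjusted p = 0.822). Both overlapped between treatments. CHAC1 had the largest uncalled value, 0.47, with an approximate 95% interval of 0.00873 to 0.94. For it edgeR's quasi-likelihood test gave an unadjusted p of 0.0563 (adjusted p = 0.492), so this interval is slightly too narrow. All other 95% intervals were made in the same way. That of ERN1, 0.00596 to 0.30, likewise left out 0 at an unadjusted p of 0.0514 in the same test. CRELD2 and SDF2L1, at 0.36 and 0.34, were the largest uncalled chaperones. PPP1R15A was at -0.0157 (-0.16 to 0.13).

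HSPA5 lost its call without dTAG-S0 replicate 1, DMSO-S30 replicates 2 or 3, or dTAG-S30 replicates 2 or 3 (adjusted p = 0.0540 to 0.250), ASNS without DMSO-S30 replicates 2 or 3, or dTAG-S30 replicates 1 or 2 (0.0517 to 0.103), and HYOU1 without DMSO-S30 replicate 2 (0.0937). The count of 4 was 1 without DMSO-S30 replicate 2 (SLC7A11) and 2 without DMSO-S30 replicate 3 or dTAG-S30 replicate 2 (HYOU1 and SLC7A11 in both), and 8 without DMSO-S0 replicate 1. ERCC library sizes left 1 (HYOU1), and the count was 7 with upper-quartile scaling alone and in the likelihood ratio test, 8 with DESeq2 and 10 without the count filter.

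**Figure D3:**
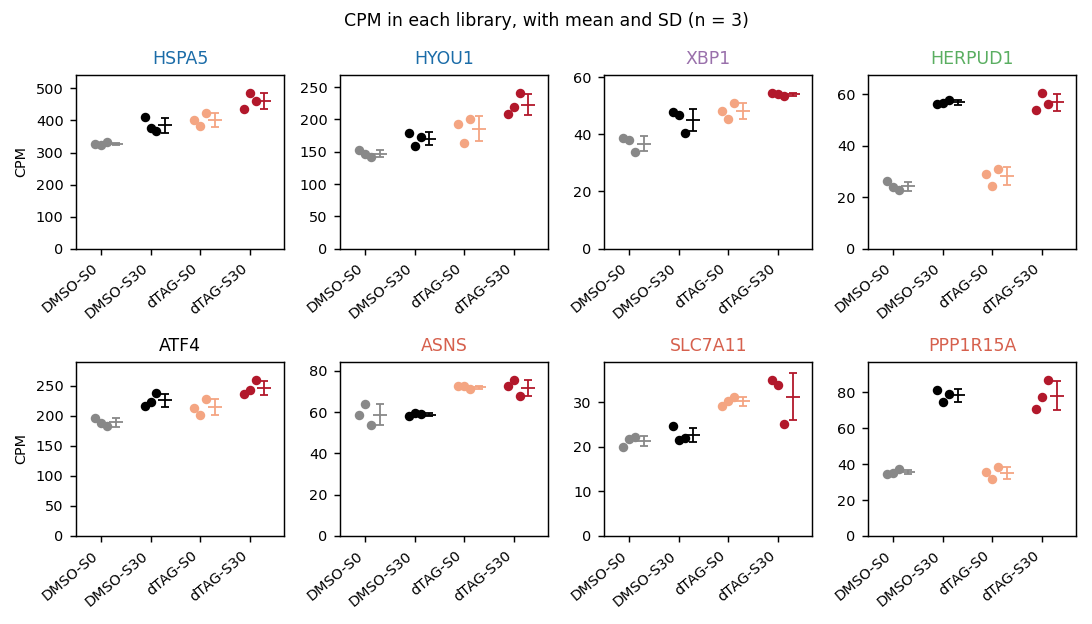
CPM of 8 members in each library (points, replicates 1 to 3 from left to right in each group) with the mean and SD of the group (n = 3) beside them, on axes that start at 0. HSPA5, HYOU1, XBP1, ASNS and SLC7A11 were higher with dTAG at both times, of which XBP1 did not pass the test with serum, while HERPUD1 and PPP1R15A split by serum, at means of 24.3 to 35.7 CPM without and 56.9 to 78.3 CPM with it.

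Serum for 30 min raised 15 of 34 members in DMSO-treated cells and lowered 0. Over all genes tested, 9.39% were called higher and 17.9% lower. The 15 were 6 of 13 chaperones (HSPA5, HSP90B1, PDIA4, DNAJB9, DNAJB11 and HYOU1), HERPUD1 and EDEM1 of 4 degradation factors, EIF2AK3 and XBP1, ATF4, and 4 of 12 ATF4 targets (DDIT4, PPP1R15A, CEBPB and STC2). In dTAG-treated cells serum again raised 15 and lowered 0, where 9.30% of all genes were called higher and 16.2% lower. These 15 were HSPA5, DNAJB9, DNAJB11 and HYOU1 of the chaperones, HERPUD1, EDEM1 and SYVN1, EIF2AK3, ATF4, and 6 of the targets (DDIT3, DDIT4, CHAC1, PPP1R15A, CEBPB and STC2). DESeq2 gave 16 members higher with DMSO and 18 with dTAG, and 0 lower in either, where it called 1699 and 1671 of all 13093 genes higher. At an unadjusted p under 0.05 edgeR gave 16 and 17 members higher and 0 and 1 lower. The share of all genes was not counted at that cut-off. The markers moved with serum too. The summed level of the 8 epithelial markers was 1220 to 1281 CPM in DMSO-S0 and 1407 to 1504 CPM in DMSO-S30, and 1241 to 1395 CPM in dTAG-S0 and 1469 to 1676 CPM in dTAG-S30. Of the 7 tested, 5 were called higher and 0 lower in each treatment, with a median log2 of 0.28 with DMSO and 0.30 with dTAG. The sum of the other-cell markers, carried by COL1A1, was higher as well, and the part of either list in these results was not tested.

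The serum comparisons depend on scaling for all genes. The share of higher calls among all calls was 34.4% in DMSO-treated and 36.4% in dTAG-treated cells here, 59.8% and 61.6% with TMM scaling, and 66.5% and 62.5% with ERCC library sizes. The median of all genes was -0.0699 and -0.0608, against -0.00124 and 0.00214 with TMM.

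HERPUD1 (ENSG00000051108.14, chromosome 16, 56932048 to 56944863, plus strand) had the largest rise of the members in DMSO-treated cells. It went from 26.2, 23.9 and 22.8 CPM in DMSO-S0 to 56.3, 56.7 and 58.0 CPM in DMSO-S30 (log2 1.27, SE 0.0815, adjusted p = 7.45e-13), and from 29.0, 24.3 and 31.1 to 54.0, 60.5 and 56.3 CPM with dTAG (log2 0.998, SE 0.0762, adjusted p = 3.50e-11). The 30-min libraries of both treatments lay on the same level. PPP1R15A (ENSG00000087074.7, chromosome 19, 48872392 to 48876057, plus strand) had 34.7, 35.2 and 37.0 CPM in DMSO-S0 and 81.0, 74.5 and 79.3 CPM in DMSO-S30 (log2 1.15, SE 0.0799, adjusted p = 4.50e-12). With dTAG it was at 35.7, 31.6 and 38.3 and then 70.6, 77.1 and 86.6 CPM (log2 1.14, SE 0.0765, adjusted p = 2.03e-12). In both genes and both treatments the S30 libraries lay far above the S0 libraries, beyond the spread within groups.

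DNAJB11 rose from the 28.4, 27.2 and 27.0 CPM of DMSO-S0 to the 36.2, 44.4 and 41.3 CPM of DMSO-S30 (log2 0.59, SE 0.0767, adjusted p = 9.03e-07), the largest rise of a chaperone. DDIT4 (ENSG00000168209.4, chromosome 10, 72273920 to 72276036, plus strand) had 33.4, 30.2 and 29.8 CPM without and 49.6, 42.2 and 50.1 CPM with serum in DMSO-treated cells (log2 0.64, SE 0.0863, adjusted p = 1.85e-06), and 35.7, 31.1 and 34.2 and 41.03, 47.5 and 50.7 CPM in dTAG-treated cells (log2 0.44, SE 0.0815, adjusted p = 0.000175). For STC2 (ENSG00000113739.10, chromosome 5, 173314713 to 173329503, minus strand) these were 21.2, 21.2 and 20.9 and 29.8, 30.9 and 35.6 CPM (log2 0.64, SE 0.0933, adjusted p = 6.66e-06), and 23.2, 21.6 and 28.3 and 31.2, 33.9 and 35.1 CPM (log2 0.43, SE 0.0875, adjusted p = 0.000522). In none of these comparisons did libraries overlap. CEBPB (ENSG00000172216.5, chromosome 20, 50190734 to 50192689, plus strand) went from 10.1, 9.17 and 8.19 to 14.1, 12.3 and 13.8 CPM (log2 0.61, SE 0.131, adjusted p = 0.000896), and with dTAG from 10.9, 9.01 and 9.08 to 12.03, 13.2 and 17.6 CPM (log2 0.53, SE 0.123, adjusted p = 0.00198), where replicate 3 was the highest of all 12 libraries.

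CHAC1 (ENSG00000128965.11, chromosome 15, 40952962 to 40956519, plus strand) was low throughout, at 1.33, 1.38 and 1.03 CPM in DMSO-S0 and 1.42, 1.54 and 1.79 CPM in DMSO-S30 (log2 0.38, SE 0.267, adjusted p = 0.303). In dTAG-treated cells it rose from 1.08, 1.04 and 1.46 to 2.42, 1.88 and 2.45 CPM (log2 0.89, SE 0.239, adjusted p = 0.00688). The rise was called in dTAG-treated cells alone, but the difference between the treatments was 0.51 with a 95% interval of -0.21 to 1.23 (adjusted p = 0.99996).

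ATF4 was raised by serum in DMSO-treated (log2 0.29, SE 0.0589, adjusted p = 0.000509) and in dTAG-treated cells (log2 0.18, SE 0.0564, adjusted p = 0.0182), by 22.3% and 13.5%. The rise of HSPA5 was 17.9% (log2 0.24, SE 0.0636, adjusted p = 0.00637) and 14.3% (log2 0.19, SE 0.0608, adjusted p = 0.0208). XBP1 was called in DMSO-treated cells (log2 0.31, SE 0.0769, adjusted p = 0.00394), and in dTAG-treated cells it had a log2 of 0.16 (adjusted p = 0.0977). In dTAG-treated cells XBP1 stayed uncalled in 4 of 8 other settings and in 10 of 12 fits without 1 library. It was called there with TMM scaling, with DESeq2, without the count filter and from the 6 libraries compared (adjusted p = 0.0127 to 0.0356). EIF2AK3, the sensor that feeds ATF4, had 0.34 and 0.31 (adjusted p = 0.00123 and 0.00187), while ERN1 and ATF6 were between -0.10 and -0.0172 with no call. DDIT3 passed in dTAG-treated cells (log2 0.40, SE 0.140, adjusted p = 0.0359) and not in DMSO-treated cells (log2 0.30, SE 0.149, adjusted p = 0.136).

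The other 6 targets of this list, among them its enzymes and its transporter of amino acid supply, were called with serum in neither treatment. Some other amino acid transporters, named with the wider lists below, were called higher with serum. ASNS had a serum log2 of 0.000947 with DMSO and -0.00550 with dTAG, with 95% intervals of -0.13 to 0.14 and -0.13 to 0.12. For TRIB3 the values were -0.0425 and -0.12, for PSAT1 -0.11 and -0.17, for PHGDH -0.0584 and -0.0823, for SLC7A11 0.0208 and 0.0735, and for CEBPG -0.00170 and -0.12. The signs of ASNS and TRIB3 changed with the setting. Side by side, PPP1R15A had a log2 of 1.15 with serum in DMSO-treated cells and -0.0120 with dTAG at S0, whereas ASNS had 0.000947 and 0.29, and HSPA5 0.24 and 0.30. These comparisons share the DMSO-S0 libraries.

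Among chaperones, the serum median was 0.17 in DMSO-treated and 0.0564 in dTAG-treated cells, and library by library 0.19, 0.0889 and 0.17, and 0.00655, 0.12 and 0.16. For the ATF4 targets it was 0.16 and 0.24, with library values of 0.15, 0.16 and 0.24, and 0.25, 0.22 and 0.24. The chaperones spread over -0.10 to 0.59 and the targets over -0.11 to 1.15 in DMSO-treated cells. No chaperone was called lower, and CRELD2, DNAJC3 and PDIA6, with log2 values of -0.10, -0.0183 and -0.0607 in DMSO-treated cells, were below 0. The count in dTAG-treated cells was 9, of which 1 lower, without dTAG-S0 replicate 2. The calls of PDIA4 in DMSO-treated and of DNAJB9 and SYVN1 in dTAG-treated cells held in 4 of the 12 fits that left out 1 library, and that of HSP90B1 in 9, all but those without DMSO-S0 replicate 3, DMSO-S30 replicate 2 or DMSO-S30 replicate 3. XBP1 was lost without DMSO-S0 replicate 3 (adjusted p = 0.0741) and CHAC1 without dTAG-S30 replicate 1 (adjusted p = 0.0520). HYOU1 was lost in DMSO-treated cells without DMSO-S0 or DMSO-S30 replicate 3. In dTAG-treated cells HSPA5, DNAJB11, HYOU1, ATF4 and DDIT3 were lost without dTAG-S0 replicate 2, HYOU1, ATF4 and DDIT3 also without dTAG-S30 replicate 3, HSPA5 without dTAG-S30 replicate 2, and DDIT3 without dTAG-S0 replicate 3 or dTAG-S30 replicate 1.

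**Figure D4:**
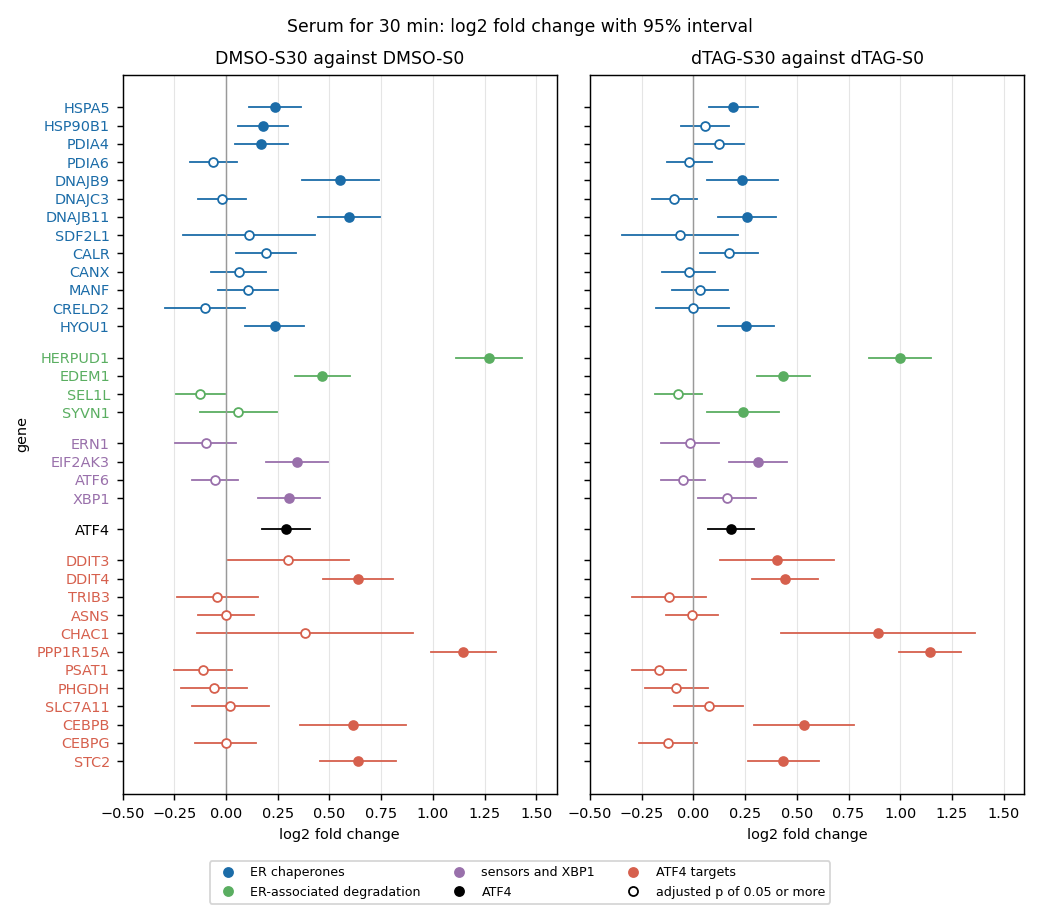
Log2 fold change of the 34 tested members after 30 min of serum, in DMSO-treated (left) and dTAG-treated cells (right). Points are edgeR estimates, lines their approximate 95% intervals (estimate ± 1.96 SE, slightly too narrow), and filled points have an adjusted p under 0.05. HERPUD1 (1.27 and 0.998) and PPP1R15A (1.15 and 1.14) stand apart on the right of both panels.

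Whether serum acted differently after KAP1 depletion was tested by the interaction of serum and dTAG. In edgeR's quasi-likelihood test 0 of 34 members passed an adjusted p of 0.05, where 0.0458% of all genes did (6 genes). DESeq2 and the likelihood ratio test gave 0 as well, where they called 22 and 16 of all genes. At an unadjusted p under 0.05 there were 3 members, all with a smaller rise after dTAG: DNAJB11 (log2 -0.34, unadjusted p = 0.00423, adjusted p = 0.990), DNAJB9 (-0.32, unadjusted p = 0.0240, adjusted p = 0.99996) and HERPUD1 (-0.27, unadjusted p = 0.0248, adjusted p = 0.99996). None of the 3 passed adjustment, and the share of all genes at the unadjusted cut-off was not counted, so they are described only. In each of the 3 the S0 mean was higher with dTAG and the S30 means were close, for DNAJB11 27.5 ± 0.722 and 33.9 ± 1.72 CPM (SD, n = 3) at S0 and 40.7 ± 4.13 and 40.97 ± 1.001 CPM (SD, n = 3) at S30. For HSPA5 the interaction was -0.0452, with a 95% interval of -0.22 to 0.13, for ASNS -0.00644 (-0.19 to 0.18) and for PPP1R15A -0.00371 (-0.23 to 0.22).

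The wider pathways were read from 4 lists of other genes in the same fit. Without serum, dTAG gave a median of -0.00670 over all genes tested, with 0.962% called higher and 0.512% lower. Of 39 tested genes among 41 further ATF4 and amino acid response genes, it raised 7 and lowered 0 (median 0.15, 35 of 39 above 0). They were the amino acid transporters SLC7A5, SLC7A1 and SLC1A5, the tRNA synthetases CARS1 and MARS1, the folate enzyme MTHFD2 and the growth factor VEGFA, which had the largest change, at 38.1 ± 0.946 CPM with DMSO and 49.4 ± 4.86 CPM with dTAG (SD, n = 3 each) (log2 0.38, SE 0.0752, adjusted p = 0.00555). MARS1 overlaps DDIT3. With serum 2 were higher, of which VEGFA had the larger change (log2 0.32, adjusted p = 0.0207), and 2 lower, with ATF3 the larger, at 1041 ± 61.01 CPM (SD, n = 3) with DMSO and 783 ± 58.2 CPM (SD, n = 3) with dTAG (log2 -0.40, adjusted p = 0.000770). Among all genes tested, 0.611% were called higher and 0.642% lower by dTAG with serum.

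ATF3, a bZIP factor of both the stress and the immediate-early response, was also the gene of this list most raised by serum, by 6.05 with DMSO and 5.36 with dTAG on the log2 scale (adjusted p = 8.57e-28 and 2.52e-27), and the only one of the 39 called in the interaction (log2 -0.69, adjusted p = 0.00518). Serum raised 13 and lowered 5 of the 39 in DMSO-treated cells, and raised 11 and lowered 5 in dTAG-treated cells, beside 9.39% higher and 17.9% lower of all genes with DMSO and 9.30% and 16.2% with dTAG. The serine synthesis enzyme PSPH fell the most in both (log2 -0.47 and -0.51, adjusted p = 1.10e-06 and 1.37e-07). Amino acid transporters called higher in both were SLC7A5 (log2 0.42 and 0.36), SLC7A1 (0.36 and 0.27) and SLC38A2 (0.60 and 0.46). The median of the list was near 0 with serum (0.0493 and 0.0152).

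Few of the other ER folding and quality control genes (38 of 41 tested) were called. dTAG raised 1 of 38 without and 1 of 38 with serum, in both SEC24D, a cargo adaptor of COPII vesicles that leave the ER (log2 0.33 and 0.33, adjusted p = 0.00876 and 0.0103). It lowered 0. Among all genes, dTAG gave 0.962% higher and 0.512% lower calls without serum, and 0.611% and 0.642% with serum. The median of the 38 without serum was 0.0936, beside -0.00670 over all genes, with 34 of 38 above 0. In 13 of 38 each dTAG-S0 library was higher than every DMSO-S0 library, against 8.50% of all genes tested. With serum 4 rose and 2 fell in DMSO-treated cells, and 3 rose and 4 fell in dTAG-treated cells, where 9.39% and 9.30% of all genes were called higher and 17.9% and 16.2% lower, so the counts of higher genes are near the share of all genes. The retrotranslocation factor SELENOS had the largest rise in each (log2 0.37 and 0.26, adjusted p = 0.000869 and 0.0111) and the oxidase ERO1B the largest fall (-0.33 and -0.42, adjusted p = 0.0270 and 0.00412).

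Of 13 tested genes among 14 other regulators of the unfolded protein response, dTAG changed 0 at either time (3 and 5 at an unadjusted p under 0.05). The share of all genes was not counted at the unadjusted cut-off, here or for the next list. Serum raised 3 and lowered 2 in DMSO-treated cells and raised 3 and lowered 1 in dTAG-treated cells, too few genes to set against the 9.39% and 9.30% of all genes called higher and the 17.9% and 16.2% called lower. The death receptor TNFRSF10B, a known target of DDIT3, rose the most (log2 0.90 and 0.82, adjusted p = 1.71e-12 and 4.68e-12), and TRAF2, an adaptor of ERN1, fell the most (-0.48 and -0.32, adjusted p = 5.02e-05 and 0.00251). Among 15 genes of eIF2, its kinases and its phosphatase, dTAG also changed 0 at either time (3 and 1 at an unadjusted p under 0.05). Serum raised 1 and lowered 2 of the 15 in DMSO-treated cells, and raised 1 and lowered 1 in dTAG-treated cells. These are again too few to set against the shares of all genes given above. PPP1R15B, the constitutive partner of PPP1R15A, rose in both treatments (log2 0.41 and 0.29, adjusted p = 1.34e-05 and 0.000771). The adaptor NCK1 fell in both (-0.42 and -0.30, adjusted p = 0.000164 and 0.00344). EIF2B3, a subunit of the eIF2 exchange factor, was called lower in DMSO-treated cells alone (log2 -0.33, adjusted p = 0.00158).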

How the data were processed

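RNA-Seq counts of 12 libraries were used, 3 in each of 4 groups taken from the sample titles. The deposited counts were made by the authors: reads were trimmed with Trim Galore 0.6.4, mapped to hg38, and counted with featureCounts (Subread 1.6.3) over the entire gene of protein-coding genes and over ERCC spike-ins, without pooling of replicates. Library input was rRNA-depleted RNA. The strand and multi-mapping settings are not given in the sources used here. The table also pairs each gene with its start, end and length.

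A gene was tested where 6 or more libraries held 10 or more counts, which kept 13093 and left out 6808. Counts were scaled by the upper quartile, 1 factor of unwanted variation was estimated from 69 ERCC spike-ins, and all 12 libraries were fitted together in edgeR 4.0.16 (R 4.3.3) by group and this factor, with glmQLFit and glmQLFTest and adjustment over all genes. A call is an adjusted p under 0.05. Counts at an unadjusted p under 0.05 are given for listed genes only, and the share of all genes at that cut-off was not counted. The code was tested on simulated data. CPM used upper-quartile library sizes, and an SE covers the spread between these libraries. Pairs of replicates differed beyond sampling noise (chi-square per degree of freedom of 3.02 to 9.80), which does not tell biological from technical replicates. Each library was counted as a sample because the study describes its 3 replicates of a condition as biological.

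The members, classes, wider lists and tests were chosen with earlier results of these data known. Values in every library were given for members called in a dTAG comparison or with a called serum change of at least 1.5-fold, and always for HSPA5, XBP1, ATF4, DDIT3, ASNS and TRIB3. From the wider lists the called gene with the largest change in each direction was named. Beyond this rule, the other genes called without serum by dTAG were named after their values were seen. So were EIF2B3 and the amino acid transporters called higher with serum in both treatments. Alternatives were TMM scaling, upper-quartile scaling without the factor, ERCC library sizes, DESeq2 1.42.0, edgeR's likelihood ratio test, no count filter, a replicate block, the 6 compared libraries alone and leaving out each library.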

Additional observations from a re-analysis of the deposited data

How the results depend on the processing

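Of the recomputed counts and medians 223 stayed within a set limit of the main value and 36 moved beyond it. A value within the limit could differ: for dTAG without serum, 13 members called by DESeq2 against 10 counted as unmoved. For a median the limit was the SD of the library medians, so which medians moved depends on that SD. It was 0.0142 for ATF4 targets with serum in dTAG-treated cells and 0.110 for dTAG without serum. Of the values for single members 973 kept sign and call, 112 lost the call, 16 gained it and 19 turned. The count of members called with dTAG and serum (4) was 7 with upper-quartile scaling alone, 1 with ERCC library sizes, 8 with DESeq2, 7 in the likelihood ratio test, 10 without the count filter and 1 to 8 when 1 library was left out. Without serum (10) it was 5 with ERCC library sizes and 1 to 14 without 1 library, and for serum in dTAG-treated cells (15) 9 to 18 without 1 library. The median log2 fold change of the ATF4 targets with serum in DMSO-treated cells (0.161) was 0.262 with TMM, 0.257 with ERCC library sizes, 0.255 with DESeq2 and 0.0934 to 0.281 without 1 library. In dTAG-treated cells (0.238) it was 0.289, 0.267 and 0.280, 0.221 without the filter, 0.187 from the 6 libraries compared and 0.179 to 0.293 without 1 library. Without 1 library the chaperone median with serum in dTAG-treated cells (0.0564) was 0.0223 to 0.138, and the target median for dTAG with serum (0.111) 0.102 to 0.185. Single values near 0 turned. The serum log2 of ASNS in dTAG-treated cells was 0.0558 with TMM, 0.0297 with ERCC library sizes, 0.0467 with DESeq2, 0.00955 without the filter and -0.0397 to 0.0328 without 1 library, and that of TRIB3 0.0112 without the filter. In DMSO-treated cells, leaving out 1 library gave -0.0947 to 0.0826 for ASNS and -0.118 to 0.0414 for TRIB3. DDIT3 with dTAG and no serum was -0.0132 from the 6 libraries compared and -0.0948 to 0.187 without 1 library. Over all genes, dTAG without serum gave 193 calls, 76 with ERCC library sizes and 310 in the likelihood ratio test, and with serum 164, 66 with ERCC library sizes, 290 with DESeq2, 277 in the likelihood ratio test and 413 without the filter. DESeq2 gave 58.5% and 59.0% of serum calls as higher. The causes were not tested. Replicate numbers did not pair the libraries: deviations from group means correlated at -0.153 to 0.139 over 18 pairs with the same number, and 5 of 12 libraries were closest to their own number. With a replicate block 15, 15, 10, 4 and 0 members were called, as without it. Low counts limit CHAC1, SDF2L1 and DDIT3.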
